A study of Homo sapiens with 2 samples.

Results

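The imprinted genes of chromosome band 11p15 were examined in 2 human embryonic stem cell lines. The set holds 8 genes, taken by symbol from a deposited table of 25436 gene symbols: H19, IGF2, CDKN1C, PHLDA2, KCNQ1, KCNQ1OT1, SLC22A18 and OSBPL5. All 8 symbols had 1 row each, on chromosome 11, within a stretch of 1170 kb. The lines, HuES53 and HuES64, are diploid and undifferentiated, were taken below passage 20, and were made from embryos obtained by in vitro fertilization as controls for a study of haploid human embryonic stem cells. No treatment or genetic change is given for either line. Messenger RNA was sequenced after poly(A) enrichment, with 1 library per line. There was therefore no replicate, no p-value is given, and each difference describes these 2 libraries. Values are in FPKM, fragment numbers divided by transcript length and sequencing depth, which is a level per unit of length.

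Imprinted genes are read mainly from the copy inherited from one parent, and 11p15 carries a pair of such domains. In the first, methylation of the paternal copy of an imprinting control region lets the paternal chromosome express IGF2, a fetal growth factor, while the unmethylated maternal copy binds CTCF and expresses H19, a long non-coding RNA. In the second, the unmethylated paternal chromosome makes KCNQ1OT1, a long antisense RNA that starts inside KCNQ1 and silences its neighbours in cis, so that CDKN1C, PHLDA2, SLC22A18 and, in some tissues, KCNQ1 and OSBPL5 come mainly from the maternal chromosome. The band is known for Beckwith-Wiedemann and Silver-Russell syndromes, and its imprints are often checked in cultured pluripotent cells because they can be lost there. The table gives the total RNA of each gene, and the parental copies cannot be told apart in it.

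Sequences are shown first for H19, since it is the host of a microRNA and one of the 3 members past 2-fold. The hairpin of miR-675 spans 73 bases and was found within 4 of the 12 H19 transcripts of GENCODE release 29. Its mature arms, from RefSeq (GRCh38.p14, minus strand of chr11:1996768-1996787 and chr11:1996800-1996822), are given with bases 2 to 8, the seed that pairs with target RNAs, in capitals.
hsa-miR-675-3p: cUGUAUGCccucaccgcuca
hsa-miR-675-5p: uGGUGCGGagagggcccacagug
No other mature human microRNA in that reference table had the seed of the 3p arm, and 1 other, hsa-miR-4466, had the seed of the 5p arm. The row of the hairpin gene, MIR675, was listed at 0 FPKM in both lines. A mature microRNA is not retained by poly(A) enrichment, so the table holds no measure of it.

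RefSeq promoter windows were matched for 2 of the 8 members, H19 and OSBPL5, one of them past 2-fold and the other nearly level in the deposited values. The 250 bases before each gene start are printed with every CG dinucleotide, the site of DNA methylation, in capitals.
H19, GRCh38.p14, minus strand of chr11:2001267-2001516: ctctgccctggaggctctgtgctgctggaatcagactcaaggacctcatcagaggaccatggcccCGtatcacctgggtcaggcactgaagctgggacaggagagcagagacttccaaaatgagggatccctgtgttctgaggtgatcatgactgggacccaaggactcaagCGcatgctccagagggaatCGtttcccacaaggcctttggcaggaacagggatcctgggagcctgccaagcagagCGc
OSBPL5, GRCh38.p14, minus strand of chr11:3165311-3165560: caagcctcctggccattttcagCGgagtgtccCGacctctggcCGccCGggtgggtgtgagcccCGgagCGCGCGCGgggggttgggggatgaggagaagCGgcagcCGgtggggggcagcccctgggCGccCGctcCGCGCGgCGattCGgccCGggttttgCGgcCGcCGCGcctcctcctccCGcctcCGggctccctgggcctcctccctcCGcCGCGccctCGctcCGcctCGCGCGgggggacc
The OSBPL5 window held 33 CG dinucleotides and the H19 window 4, against a median of 11 over the 35116 promoters of the table, of which 93.9% held at least 1. The H19 window lies at a start 4435 bases before the miR-675 hairpin, whereas the H19 locus of the deposited table begins 1004 bases before it. The printed window is thus not the one next to the locus that was measured. Methylation was not measured in these libraries.

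Steps in the lowest values of short olfactory receptor genes put 1 FPKM over 1 kb at about 18.6 fragments in HuES53 and 15.2 in HuES64, a depth ratio of 1.22. These figures assume fragments of 200 bases and rest on 8 and 3 genes that shared the lowest step. They give a rough count of fragments behind each value, from which 95% counting intervals were taken, and those intervals hold no spread between cultures. Both libraries expressed the pluripotency markers, with POU5F1, the core transcription factor, at 1053 FPKM in HuES53 against 1381 FPKM in HuES64, and all 10 markers of that list were at 1 FPKM or more in each line. Of 13790 genes whose mean over both lines reached 1 FPKM, 3.86% differed by at least 2-fold, 1.7% in favour of HuES64 and 2.15% in favour of HuES53. Differences are on the log2(FPKM + 1) scale, HuES53 minus HuES64, so a value below 0 is higher in HuES64, and the pseudocount of 1 FPKM makes folds on this scale smaller than the plain ratio.

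Of the 8 members, 7 had a mean of at least 1 FPKM, and all 7 read higher in HuES64 (6 of 7 with TPM scaling, where OSBPL5 turned). Over all tested genes, 47.5% read higher in HuES64 in the deposited values, and 28.0% with TPM scaling. H19, PHLDA2 and IGF2 were at least 2-fold higher there, none was 2-fold higher in HuES53, and the median difference of the 7 was -0.53, beside 0.03 for all tested genes. CDKN1C and SLC22A18 stood about 1.4-fold higher on the same scale, and OSBPL5 was close to level. KCNQ1 stood 1.20-fold higher on that scale, with a plain ratio of 1.35, and KCNQ1OT1 was near the bottom of the table in both lines. The 2-fold size of the 3 genes held with pseudocounts of 0.1 and 0.5 FPKM, but none of the 3 reached it with scaling to TPM or once a trend with GC content and transcript length was removed, as given further on.

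**Figure D1:**
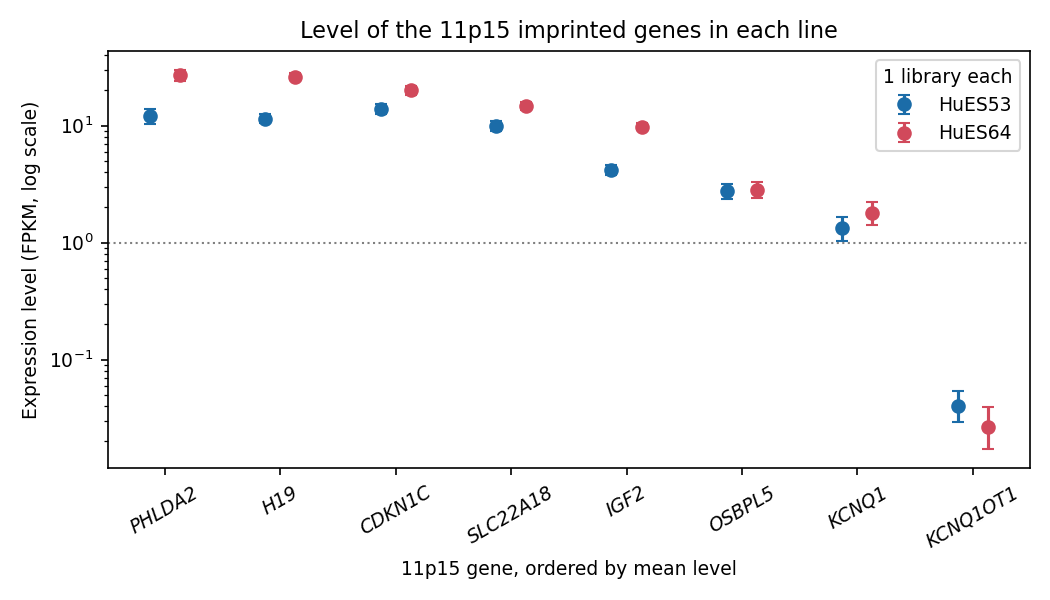
Level of the 8 genes in FPKM on a log axis, 1 point per library (HuES53 in blue, HuES64 in red), with 95% counting intervals that rest on the estimated depth; the dotted line marks 1 FPKM. PHLDA2, H19 and IGF2 have well separated points, OSBPL5 and KCNQ1 have overlapping intervals, and KCNQ1OT1 lies below 0.1 FPKM in both libraries.

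H19 (11:2016406-2019065, in the coordinates of the deposited table) had a level of 11.5 FPKM in HuES53 and of 26.2 FPKM in HuES64. The difference was -1.13, or 2.18-fold on the log2(FPKM + 1) scale, and the plain ratio of 2.29 had a counting interval of 2.04 to 2.57. Its level was at the 51.0 percentile of tested genes in HuES53 and at the 73.0 percentile in HuES64. Of the 13790 differences, that of H19 ranked 180th from the end of genes higher in HuES64.

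IGF2 (11:2150347-2170833), the paternally expressed partner of H19, had a level of 4.19 FPKM in HuES53 and of 9.83 FPKM in HuES64. Its difference was -1.06, and the plain ratio was 2.34, with a counting interval of 2.08 to 2.65. Although H19 and IGF2 are read from opposite parental copies, both were higher in the same line, and the ratio of H19 to IGF2 was nearly the same in the libraries, at 2.74 in HuES53 and 2.67 in HuES64. The ratio of H19 to PHLDA2, a gene of the other domain, was also nearly the same, at 0.954 in HuES53 and 0.974 in HuES64. A steady ratio was thus not particular to H19 and IGF2. Such ratios do not depend on the scaling of a library. The locus of IGF2 overlaps INS-IGF2, a read-through with the insulin gene, listed at 9.15e-07 and 1.28e-06 FPKM, the hairpin gene MIR483, listed at 0 in both lines, and the antisense gene IGF2-AS. IGF2-AS had a level of 0.0289 FPKM in HuES53 and of 0.388 FPKM in HuES64. The strand setting of the counting is not given in the sources used here, so fragments of IGF2 and IGF2-AS may not be separable where they overlap.

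PHLDA2 (11:2949503-2950650), which encodes a small pleckstrin homology domain protein that restrains placental growth, was the highest member in HuES64. It had a level of 12.0 FPKM in HuES53 and of 27.0 FPKM in HuES64, a difference of -1.10 with a plain ratio of 2.24 and a counting interval of 1.85 to 2.71. No other row of the table overlaps it. In the deposited values its relatives outside the imprinted domain were higher in HuES64 by a smaller size, PHLDA1 at 27.9 and 41.0 FPKM and PHLDA3 at 52.3 and 74.5 FPKM. This contrast was narrower after correction for GC content and length, where PHLDA1 and PHLDA3 had a median of -0.60, against -0.77 for PHLDA2.

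CDKN1C (11:2904448-2906995), the inhibitor of cyclin-dependent kinases also known as p57, was the highest member in HuES53. It had 13.95 FPKM there and 20.0 FPKM in HuES64, a difference of -0.49 with a counting interval of 1.26 to 1.63 on its ratio of 1.43. SLC22A18 (11:2920951-2946476), a membrane transporter gene, lies between CDKN1C and PHLDA2 and stood at 9.90 and 14.8 FPKM, a difference of -0.53. The ratio of SLC22A18 to CDKN1C was 0.71 in HuES53 and 0.739 in HuES64, so these neighbours kept nearly the same proportion. The ratio of PHLDA2 to CDKN1C was 0.863 in HuES53 and 1.35 in HuES64, so the genes of this domain did not differ by 1 common factor in these libraries. SLC22A18 overlaps its antisense gene SLC22A18AS, which was listed at 0 in HuES53 and stood at 0.0487 FPKM in HuES64.

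KCNQ1 (11:2466221-2870340), the pore subunit of a voltage-gated potassium channel, and OSBPL5 (11:3108346-3186582), a lipid transfer protein of the oxysterol-binding family, were the lowest members above 1 FPKM. KCNQ1 had a level of 1.33 FPKM in HuES53 and of 1.80 FPKM in HuES64. The counting interval of its plain ratio of 1.35 was 0.978 to 1.87 and included 1. OSBPL5 stood at 2.76 and 2.84 FPKM, with an interval of 0.827 to 1.28. At this depth neither difference could be told from counting error.

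KCNQ1OT1 (11:2661768-2721228) had a level of 0.0398 FPKM in HuES53 and of 0.0266 FPKM in HuES64 and did not pass the filter of 1 FPKM. Over its unspliced locus of 59461 bases this equals about 44 and 24 fragments, a figure that rests on that length. The ratio of HuES64 to HuES53 was 0.667, with a counting interval of 0.388 to 1.12 that included 1. The whole locus lies within KCNQ1, on the opposite strand, and fragments of unspliced KCNQ1 RNA and of KCNQ1OT1 cannot be told apart without strand. Its reference transcript was also the poorest in GC among the members, at 43.7%, against 60.4% to 65.4% for the others.

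In HuES53 the order of levels was CDKN1C, PHLDA2, H19, SLC22A18, IGF2, OSBPL5, KCNQ1 and KCNQ1OT1. In HuES64 it was PHLDA2, H19, CDKN1C, SLC22A18, IGF2, OSBPL5, KCNQ1 and KCNQ1OT1. The counting intervals of the neighbours CDKN1C and PHLDA2 overlapped in HuES53 (12.7 to 15.3 FPKM, and 10.3 to 14.004 FPKM), as did those of PHLDA2 and H19 in both lines and those of H19 and SLC22A18 in HuES53. From SLC22A18 downward the intervals of neighbours did not overlap in either line. These intervals use the longest transcript, or the locus where shorter, which gives the most fragments and so the narrowest intervals. For KCNQ1 the longest transcript has 3246 bases against a median of 828, and for OSBPL5 3889 against 795. Whether the intervals overlap with shorter transcripts was not tested. In the listed values, the first 3 places differ between the libraries, and the order of the other 5 is the same in both.

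The members are GC-rich, and in these libraries the difference moved with GC content. Over 11916 tested genes with a transcript in GENCODE release 29 (86.4% of those tested), Spearman's rho of the difference with the median GC content of the transcripts was -0.49, across genes, which are not independent replicates. These genes were cut into 10 equal groups by GC content, and all 7 tested members lay in the 2 highest groups. In the highest group, which held H19, PHLDA2, CDKN1C, SLC22A18 and OSBPL5, 80.4% of 1192 genes read higher in HuES64 and 3.10% were at least 2-fold higher there. In the group below it, which held IGF2 and KCNQ1, these shares were 76.9% and 2.10%. That all 7 members read higher in HuES64 thus stands beside a large majority of genes of like GC content doing the same.

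**Figure D2:**
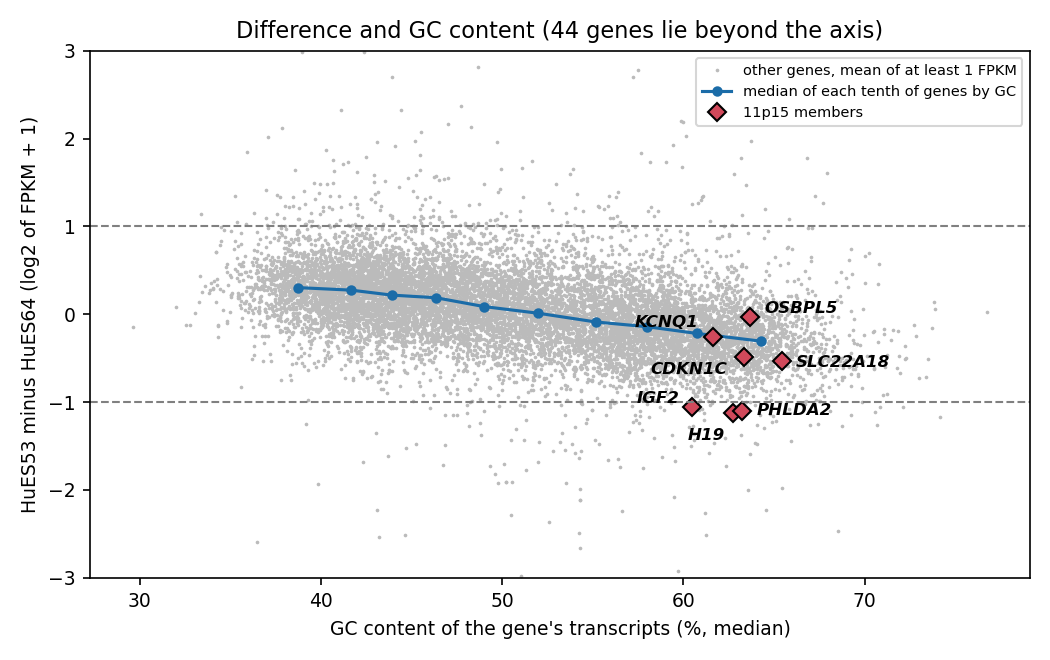
Difference between the lines (log2 of FPKM + 1, HuES53 minus HuES64) against the median GC content of the transcripts of each gene in percent, for 11916 genes in grey, with the medians of 10 equal groups of genes by GC content in blue and the 7 tested members as red diamonds; dashed lines mark 2-fold. The members sit at the GC-rich end, where the medians are -0.22 and -0.31, and H19, PHLDA2 and IGF2 lie well below them.

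With the medians over bins of GC content and of length subtracted, the differences were -0.78 for H19, -0.84 for IGF2 and -0.77 for PHLDA2, all under 2-fold, a size that 2.86% of all genes reached on this scale. The same correction with the longest transcript of each gene gave -0.81, -0.98 and -0.54. CDKN1C (-0.20), SLC22A18 (-0.10) and KCNQ1 (0.030) were then close to 0, and OSBPL5 read higher in HuES53 (0.29). The median of the 7 members was -0.20, against 0 for all genes, and 5 of 7 read higher in HuES64, beside 50% of all genes. The other tested genes of the surrounding 11p15 window had the same median of -0.20 on this scale. H19, IGF2 and PHLDA2 kept the largest differences of the set under both forms of the correction, while the other 4 lay between -0.20 and 0.29 in the first. Scaling to TPM shifted the median of all genes from 0.03 to 0.25. Relative to that median H19 stood at -1.16, IGF2 at -1.14 and PHLDA2 at -1.14, close to the -1.15, -1.09 and -1.13 of the deposited values. This scaling multiplies each library by 1 factor, so values relative to the median can change only through the pseudocount. Their closeness therefore follows from the method and is no further result.

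**Figure D3:**
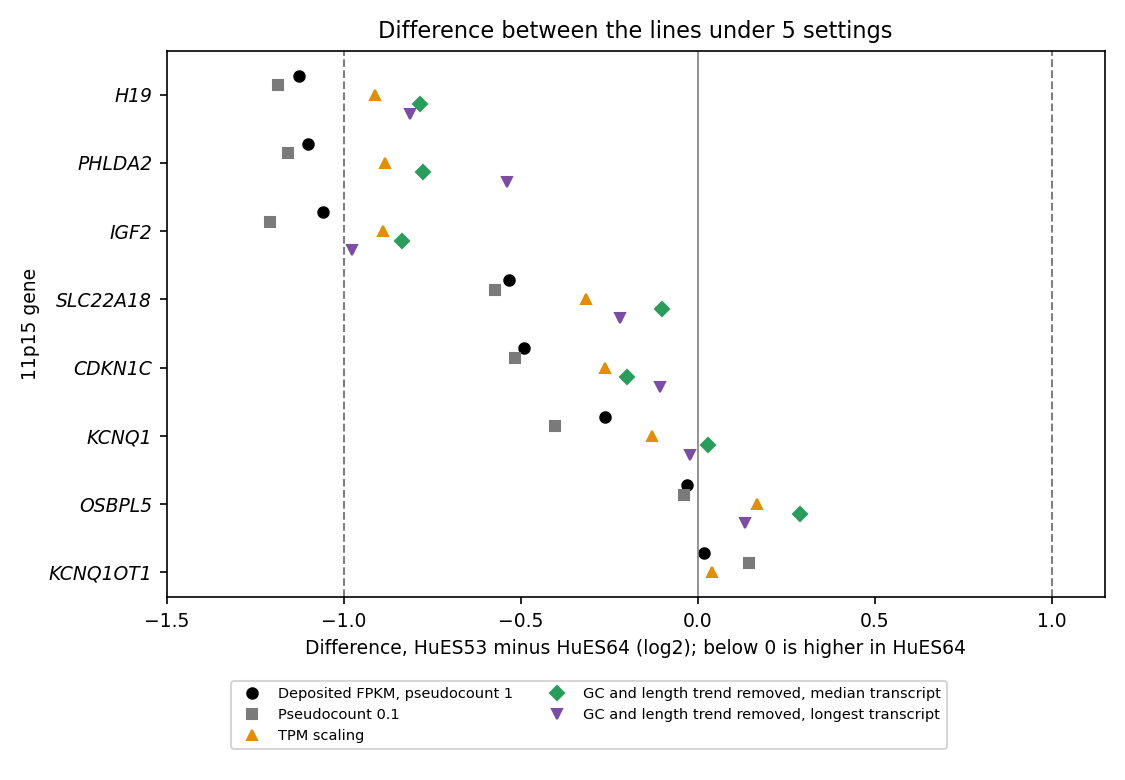
Difference between the lines for each of the 8 genes (log2, HuES53 minus HuES64) under 5 settings, 1 symbol per setting; dashed lines mark 2-fold and KCNQ1OT1 has no value with the trend removed. H19, PHLDA2 and IGF2 stay below -0.5 under all 5 settings shown but pass the 2-fold line only with the deposited FPKM values and the smaller pseudocount, and OSBPL5 crosses 0.

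The neighbours in position were taken from 500 kb on either side of the outermost members. The window held 55 rows, 47 of them for genes that are not members, and 22 rows were listed at 0 in both lines, among them INS, SYT8, TNNI2, TNNT3 and TRPM5, genes of specialised tissues. ASCL2, a trophoblast factor of the same band, stood at 0.0971 and 0.119 FPKM. Of the 10 other genes that passed the filter of 1 FPKM, 7 read higher in HuES64 and 3 in HuES53, with a median of -0.09, and with TPM scaling these became 4 and 6, with a median of 0.13. With the GC and length trend removed, 9 of the 10 had a value, and their median was -0.20, the same as that of the members. MRPL23, a mitochondrial ribosomal protein gene next to H19, stood at 95.4 and 143 FPKM, and CTSD, which encodes the lysosomal protease cathepsin D, at 106 and 150. Between the domains, CD81, a tetraspanin gene, stood at 292 and 322 FPKM, and TSSC4 at 18.8 and 31.4.

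Differences did not run evenly along the window. NAP1L4, a histone chaperone gene beside PHLDA2, was level at 80.9 and 83.4 FPKM, and CARS, the cysteinyl-tRNA synthetase gene between NAP1L4 and OSBPL5, stood at 56.4 and 51.4. The only non-member at least 2-fold different was ART5, an ADP-ribosyltransferase gene near the far edge of the window, at 5.93 FPKM in HuES53 and 18.7 in HuES64, a difference of -1.51, and of -1.26 with the trend removed. H19, IGF2 and PHLDA2 thus made up 3 of the 4 genes of the window past 2-fold, among 17 tested. With TPM scaling or the trend removed only 1 of the 4 was left, ART5.

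**Figure D4:**
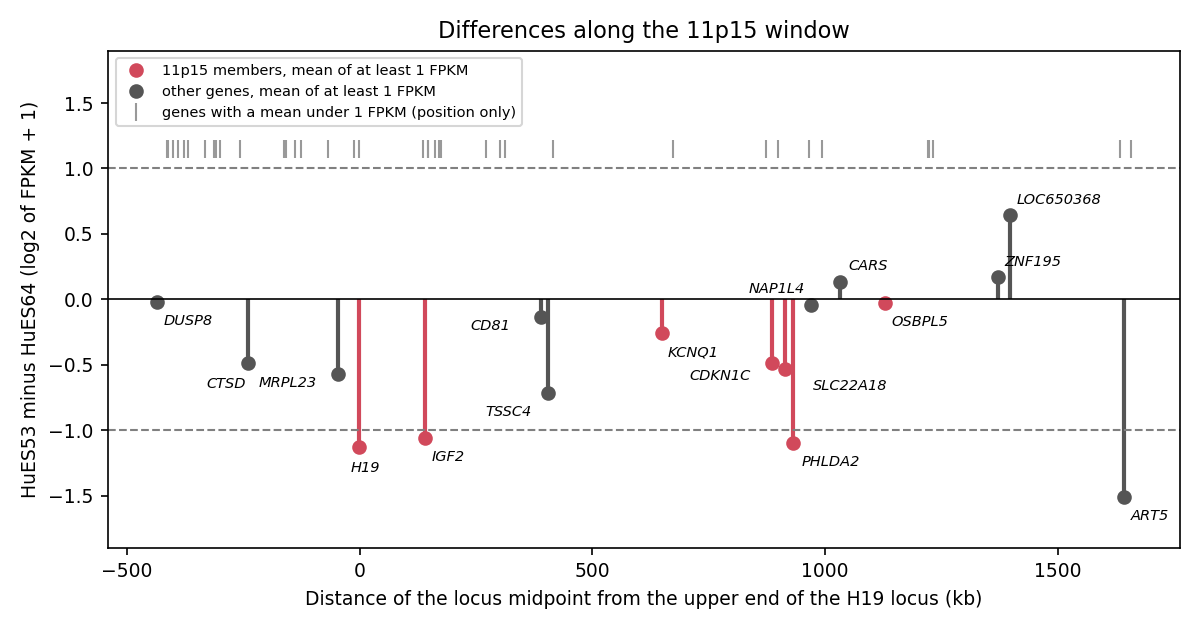
Difference between the lines (log2 of FPKM + 1, HuES53 minus HuES64) against the distance in kb from the upper end of the H19 locus, members in red and other genes in grey, with short marks for genes under a mean of 1 FPKM; dashed lines mark 2-fold. The strongest values among the members are at H19, IGF2 and PHLDA2, and MRPL23 beside H19 and NAP1L4 beside PHLDA2 lie nearer to 0.

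Of 13 tested genes of IGF receptors, binding proteins and IGF2 mRNA-binding proteins, 10 read higher in HuES53 and 3 in HuES64, the line with more IGF2 RNA, with a median of 0.28. After removal of the trend with GC and length the split was 8 to 5 and the median 0.18. IGF1R, the signalling receptor, had a level of 18.2 FPKM in HuES53 and of 14.9 FPKM in HuES64, and IGF2R, which clears IGF2, at 14.7 and 10.95. The secreted binding proteins were split. IGFBP2 (255 and 368 FPKM), IGFBP6 (76.9 and 114 FPKM) and IGFBP4 (51.2 and 61.5 FPKM) read higher in HuES64. IGFBP5 (80.6 and 22.8 FPKM, 3.43-fold) and IGFBP3 (12.6 and 6.10 FPKM, 1.92-fold) read higher in HuES53. In the deposited values IGFBP5 was the single gene of the list past 2-fold, beside 3.86% of all tested genes. With TPM scaling, or with the trend removed, 2 genes of the list were past it, both higher in HuES53. Of all genes 6.54% were past it with TPM scaling, 720 of these 902 higher in HuES53, and 2.86% with the trend removed. IGF2BP3, which binds IGF2 messenger RNA, stood at 82.6 and 62.2 FPKM.

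A list of factors of the 11p15 imprinting centres, or of imprints in general, was also read. It holds LIN28A and LIN28B as well, which are RNA-binding proteins. Of its 21 tested genes, 14 read higher in HuES53 and 7 in HuES64, with a median of 0.16. Over all tested genes, 47.5% read higher in HuES64. After removal of the GC and length trend the split of the 21 was 12 to 9 and their median 0.097. Past 2-fold in the deposited values were 2 of the 21, beside 3.86% of all tested genes. With TPM scaling 5 of the 21 were past it, 4 of these higher in HuES53. Of all tested genes 6.54% were past it with that scaling, 720 of these 902 higher in HuES53. CTCF, which insulates IGF2 from its enhancers, stood at 29.8 and 26.7 FPKM, and DNMT1, the maintenance methyltransferase, at 34.0 and 31.9. TRIM28, the co-repressor that ZFP57 recruits, stood at 360 and 388 FPKM, and LIN28A, an RNA-binding protein of stem cells, at 430 and 448. RAD21, a cohesin subunit gene (98.3 and 53.4 FPKM), LIN28B (32.3 and 17.1 FPKM), DPPA3 (3.13 and 1.41 FPKM) and NLRP7 (6.10 and 3.32 FPKM), named after their values were seen, also read higher in HuES53. EHMT2 (36.0 and 43.6 FPKM), EED (15.2 and 17.0 FPKM) and SOX2 (114 and 122 FPKM), named in the same way, read higher in HuES64. ZFP57, a zinc finger protein that protects imprints, had a level of 26.6 FPKM in HuES53 and of 1.09 FPKM in HuES64, and NLRP2, a maternal-effect gene linked to imprinting, at 22.2 and 118. ZFP57 and NLRP2 differ in opposite directions, and whether either bears on the 11p15 genes was not tested.

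Relatives of CDKN1C and of the other members were set beside them. Among 15 tested cyclin-dependent kinase inhibitors and partners, 9 read higher in HuES53 and the median was 0.11. CDKN1A (p21) stood at 83.0 and 104 FPKM, CDK4 at 131 and 185, CCNA2 at 85.7 and 59.9, and CDKN2B, at 5.63 and 2.04, was the only one past 2-fold. CDK4, CCNA2 and CDKN2B overlap other rows of the table. Of 11 tested genes of the oxysterol-binding family, 9 read higher in HuES53, with a median of 0.35. With the trend removed these were 8 of 11 and 0.21. OSBPL8 (18.1 and 8.53 FPKM) was just past 2-fold in this family, though not with the trend removed or with median of ratios scaling. The highest genes of the family were OSBPL9 (49.5 and 40.9 FPKM), OSBPL10 (30.4 and 20.3 FPKM) and OSBP (27.2 and 21.4 FPKM), each of which overlaps another row.

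Among the potassium channel relatives of KCNQ1 described here, KCNE1L (3.13 and 1.86 FPKM) and KCNE3 (1.52 and 2.27 FPKM) encode accessory subunits, and neither was past 2-fold. Of the 22 SLC22 transporter genes besides SLC22A18, 6 were tested, none was past 2-fold, and the highest were SLC22A17 (16.8 and 25.6 FPKM), SLC22A23 (9.67 and 5.65 FPKM) and SLC22A31 (3.795 and 6.37 FPKM).

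Several members are strongly expressed in placenta, yolk sac or mesenchyme, so markers of other cell types were summed in each line. Fibroblast and mesenchyme markers were split, with 10 of 15 tested higher in HuES64 (9 with TPM scaling). Their median was -0.38, or -0.14 after removal of the GC and length trend, and the 19 genes summed to 1177 FPKM in HuES53 and 1655 in HuES64. TAGLN made up most of these sums, at 779 and 1165 FPKM. COL1A1 stood at 138 and 168, and COL3A1, which overlaps microRNA genes, at 3.08 and 8.00, while COL1A2 (66.5 and 46.7 FPKM) and COL5A2 (28.6 and 14.005 FPKM) read higher in HuES53. In the same list, PDGFRA (2.15 and 1.13 FPKM), PRRX1 (1.11 and 0.561 FPKM), TWIST1 (2.55 and 1.74 FPKM) and POSTN (0.601 and 0.477 FPKM) also read higher in HuES53. PRRX1 and POSTN had a mean under the filter of 1 FPKM. COL6A2 (66.5 and 121 FPKM), COL6A1 (58.1 and 83.1 FPKM), S100A4 (14.8 and 26.0 FPKM), COL6A3 (1.49 and 3.02 FPKM) and PDGFRB (2.03 and 2.96 FPKM) read higher in HuES64. These genes, and COL1A2 and COL5A2, were named after their values were seen. DCN stood at 0.199 and 0.438 FPKM, LUM at 2.26 and 3.47, and FAP was listed at 0 in HuES53 and stood at 0.178 in HuES64. The part of these cells in the difference of H19, IGF2 and PHLDA2 was not tested, and in bulk RNA more cells of a type and more RNA per cell cannot be told apart.

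Trophoblast markers were low in both lines, with 3 of 4 tested higher in HuES53, sums of 14.04 and 10.7 FPKM over 15 genes, KRT7 at 6.19 and 5.35, GATA3 at 2.30 and 1.93, HLA-G at 0.854 and 1.99, and GCM1 listed at 0 in both. CGA had 2.90 FPKM in HuES53 and a listed value of 0 in HuES64, as had 7 other genes of that list. Of 13 tested endoderm and yolk sac markers, 10 read higher in HuES53, and the list summed to 1050 and 545 FPKM. CER1 (543 and 104 FPKM), CXCR4 (68.1 and 26.3 FPKM) and AFP (7.25 and 1.53 FPKM) were past 2-fold, and APOA2 stood at 264 and 214 FPKM. CER1 made up most of the gap between the sums. The 3 tested markers higher in HuES64 were APOA1 (113 and 152 FPKM), SOX17 (6.89 and 10.6 FPKM) and TTR (4.58 and 5.60 FPKM). Of 6 tested mesoderm markers, 4 read higher in HuES53, with a median of 0.62, or 0.36 with the trend removed, and the list summed to 57.7 and 37.4 FPKM. KDR stood at 27.6 and 17.6, GSC at 10.7 and 4.90 and MIXL1, past 2-fold, at 6.84 and 2.52, while TBX6 (2.37 and 3.99 FPKM) and HAND1 (1.39 and 2.21 FPKM) read higher in HuES64. Neuroectoderm markers were carried by NES, at 66.3 and 71.0 FPKM, with PAX6 at 1.19 and 0.720. Whether cells of any of these types bear on the 11p15 members was not tested.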

How the data were processed

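Poly(A)-enriched RNA of HuES53 and HuES64 was sequenced from TruSeq libraries, per the labels' protocols. The authors deposited FPKM values per gene symbol and locus, and TopHat2 2.0.4 with Cufflinks 2.0.2 appear, with no role, in the submitters' processing notes. For the genome build, annotation and strand setting, nothing is stated in the sources used here. Loci count from 0: 1036 of 1068 microRNA rows then had the RefSeq length, and printed coordinates count from 1. A count test was not used, since FPKM are normalized values.

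The 136 rows of chromosome Y were left out and repeated symbols were summed. Genes whose mean reached 1 FPKM were tested against a 2-fold size. The GC and length trend was removed by subtracting medians over 20 bins of each in 5 rounds. The simulated data on which this was tried held a trend with GC content only, with changed genes drawn from all GC levels. Removal of a length trend, or its effect on a set of GC-rich genes, was therefore not tested. Counting intervals are exact Poisson for levels and exact Clopper-Pearson for ratios (95%), on fragments estimated from the longest GENCODE release 29 transcript, or the locus where shorter, and cover counting error only. Sequences came from RefSeq tables (GRCh38.p14). Python 3.11.15, pandas 2.3.3, numpy 2.4.6, scipy 1.17.1 and matplotlib 3.10.9 were used.

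The members and lists were chosen with earlier results of these data known. Named were all members, window genes past 2-fold or overlapping a member, and from each list the 3 highest genes (2 for cell type markers) and those past 2-fold. Other genes were named after their values were seen. No genes of like pattern were sought, since with 2 samples every gene correlates at 1 or -1. Some genes that this rule would name are left out here.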

Additional observations from a re-analysis of the deposited data

How the results depend on the processing

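No paired analysis was possible because each line has 1 library, and no library could be left out. Upper quartile and median of ratios scaling, a pseudocount of 0.5 FPKM and taking the highest row where a symbol repeats left every member on its side of 2-fold and in its direction. With TPM scaling H19 (-0.91), IGF2 (-0.89) and PHLDA2 (-0.88) were under 2-fold and OSBPL5 turned to 0.17. With the GC and length trend removed, H19 was at -0.78, IGF2 at -0.84 and PHLDA2 at -0.77, while KCNQ1 turned to 0.030 and OSBPL5 to 0.29. By the longest transcript, an alternative chosen after seeing the data, the values were -0.81, -0.98, -0.54 and 0.13 for H19, IGF2, PHLDA2 and OSBPL5. Members past 2-fold numbered 3 with the deposited values and 0 under each of these 3 settings, and window genes numbered 4 with the deposited values and 1 under TPM scaling or with the trend removed by the median transcript. Over all genes the 532 past 2-fold became 990 (pseudocount of 0.1 FPKM), 902 (TPM scaling), 341 (trend removed) and 320 (mean of at least 5 FPKM). TPM scaling gave 720 higher in HuES53 and 182 in HuES64, against 297 and 235. At 5 FPKM, 4 members were detected in HuES53, against 7 at 1 FPKM. The cause of these changes was not tested. The absence of replicates limits every difference, and for KCNQ1, OSBPL5 and KCNQ1OT1 so does depth.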

Other observations

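Of 23 tested imprinted genes outside 11p15, 14 read higher in HuES53 and 9 in HuES64, with a median difference of 0.11, and 2 were past 2-fold in opposite directions. With the GC and length trend removed, 12 read higher in HuES53 and 11 in HuES64, with a median of 0.0062, beside -0.20 for the 11p15 members. MEG3, a long non-coding RNA read from the maternal copy, had a level of 27.3 FPKM in HuES53 and of 3.13 FPKM in HuES64, and NLRP2 at 22.2 and 118. The highest genes, SNURF (1117 and 1347 FPKM), GNAS (538 and 636 FPKM) and MEST (94.1 and 70.9 FPKM), were under 2-fold. The difference between these genes and the 11p15 members was not tested. PEG3, a paternally expressed zinc finger gene named after its values were seen, had 2.00 FPKM in HuES53 and a listed value of 0 in HuES64, which kept its mean just under the filter. MEG3, SNURF, GNAS and MEST overlap other rows of the table.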
